A study of Mus musculus with 6 samples.

Results

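The 9 genes described here serve the liver's handling of ammonia: 6 of the urea cycle (Nags, Cps1, Slc25a15, Otc, Ass1 and Asl) and 3 that release, fix or interconvert glutamine and glutamate (Gls2, Glul and Glud1). They were taken by symbol from a table of 24346 gene rows, and 9 of 9 were found. The livers came from C57BL/6 mice (C57BL/6J in the study's methods), males aged 8 weeks at the start of CDAHFD, a high-fat diet that lacks choline and gives its protein as defined amino acids, which was fed for 6 weeks as a model of nonalcoholic steatohepatitis and replaced by normal chow for the last 2 weeks. All mice were given, by vein, an adeno-associated virus of serotype 8 whose cargo is driven by the thyroxine-binding globulin promoter, which is active in hepatocytes. In the 3 control livers the cargo was the lipid droplet-targeting sequence of perilipin 1 joined to an LC3-interacting region with the mutation named in LDTS-LIR mut, and in the 3 lipophagy livers the same sequence joined to an engineered region that recruits autophagosomes (LDTS-eLIR). Both groups thus carried the droplet-targeting part, and no group without virus or without the diet was compared here.

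Ammonia set free from amino acids is turned into urea by periportal hepatocytes, which line the blood's entry to the lobule. N-acetylglutamate, carbamoyl phosphate and citrulline are made in the mitochondrion, and the later steps to urea run in the cytosol. Glutaminase 2 feeds ammonia to the cycle in the same periportal cells, whereas glutamine synthetase, in a thin layer of pericentral hepatocytes around the central vein, takes up the ammonia that escaped. The comparison asked whether these genes differed between lipophagy-induced and control livers.

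Expression was given as FPKM, fragments scaled to the length of the transcript and to the mapped fragments of the library, a scale on which levels of different genes can be set side by side. From the steps of low FPKM values and transcript lengths the depth was estimated at 21.0 to 31.3 M fragments a liver. The sum of all FPKM values ran from 622696 to 681138 in control livers and from 709993 to 782392 in lipophagy livers. Summed markers of hepatocytes (19 of 20 found) were at 104456 to 115164 FPKM in control livers and 120963 to 151667 FPKM in lipophagy livers, without overlap, so the defining markers of the labelled tissue were present. Summed markers of stellate cells (214 to 240 and 173 to 221 FPKM), macrophages (548 to 728 and 542 to 671 FPKM), bile duct cells (138 to 250 and 92.9 to 199 FPKM), endothelium (40.2 to 49.6 and 44.2 to 68.2 FPKM), neutrophils (17.9 to 30.8 and 15.6 to 18.3 FPKM) and lymphocytes (6.05 to 8.88 and 6.07 to 6.46 FPKM) overlapped between control and lipophagy livers, and 0 of the markers found were at 0 in all livers. Of the tested genes, 7 of 7 bile duct markers, 8 of 10 stellate markers and 7 of 11 macrophage markers had a lower mean in lipophagy livers, and 8 of 10 endothelial markers a higher one. Among single markers, 5 of 10 of stellate cells (Col1a1, Col1a2, Col3a1, Pdgfrb and Lum, with Col1a1 at 6.35 ± 0.57 and 3.41 ± 0.70 FPKM, SD, n = 3), 3 of 11 of macrophages (Csf1r, Cd68 and Ccr2) and 1 of 2 of neutrophils (S100a9) were lower without overlap, against 10.8% of all tested genes, and 1 of macrophages (Vsig4) was higher without overlap. The part of cell composition in the results below was not tested. In whole tissue, a change in the number of cells of a type and a change in RNA per cell cannot be told apart.

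All 9 genes had a higher mean in lipophagy livers, against 54.5% of the 11493 genes tested (those with a mean of at least 0.5 FPKM). In 3 of the 9, namely Otc, Ass1 and Asl, each lipophagy liver lay above each control liver, which was so for 15.4% of all tested genes. These are the steps that make citrulline and turn it into arginine. Ass1 differed most, by 67.0%, followed by Asl (56.5%) and Otc (28.0%), while the first enzymes of the cycle, the ornithine carrier and the 3 glutamine and glutamate genes differed by 9.74% to 25.5% with overlapping livers. After adjustment over all tested genes 0 of the 9 members passed (limma, Benjamini-Hochberg, adjusted p below 0.05), where 0.0261% of tested genes did, so that none of the members is called as changed. At an unadjusted p below 0.05 the same 3 members passed, all upward, against 11.5% of tested genes, and 0 passed downward, against 7.97%. Without lipophagy liver 2 the upward count was 5, against 9.41% of all tested genes in that fit. The median log2 change of the members was 0.20, beside 0.020 over all tested genes.

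**Figure D1:**
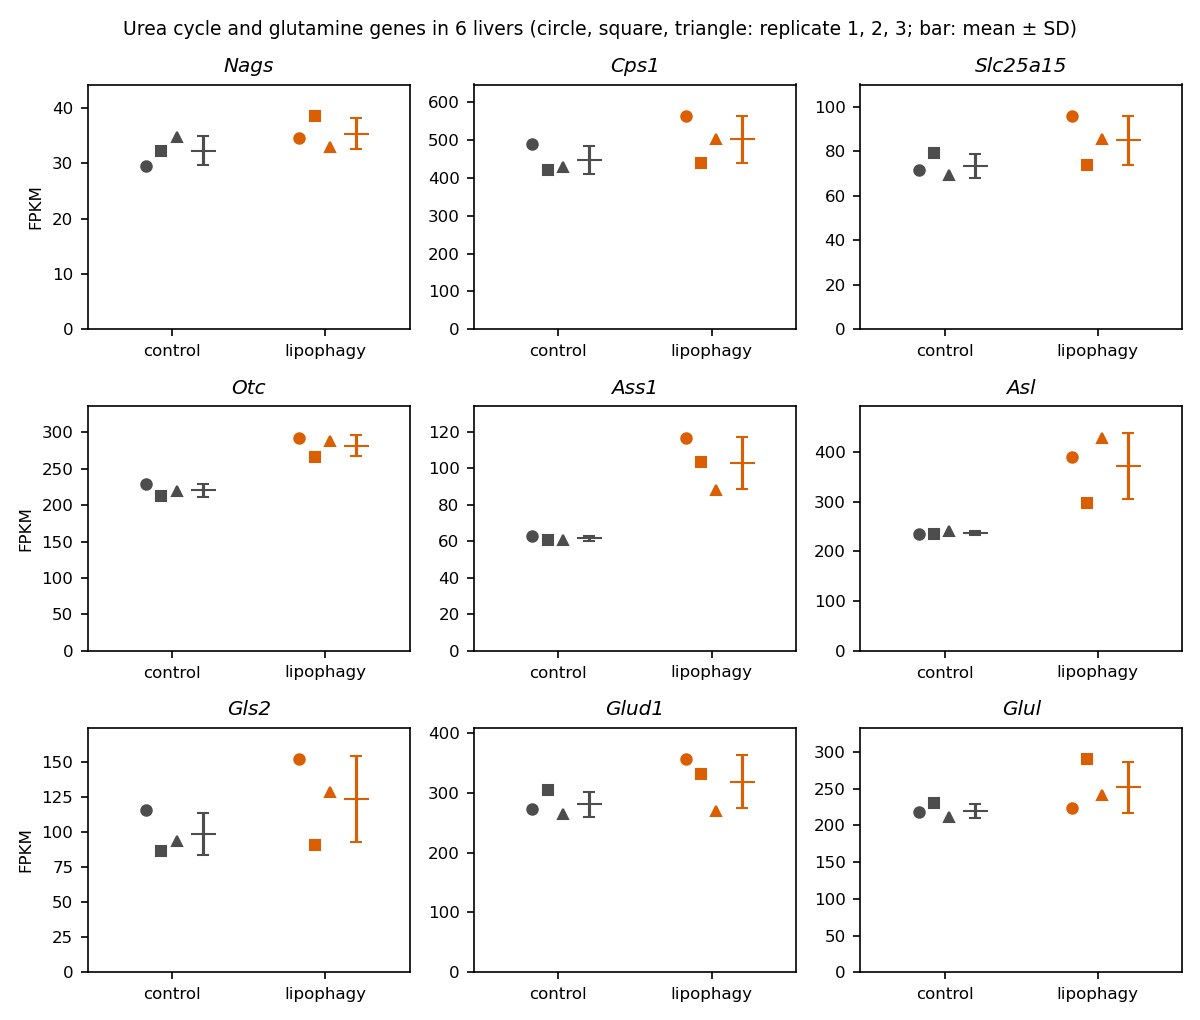
FPKM (vertical axes, each from 0) of the 9 genes in control livers (grey) and lipophagy livers (orange). Circles, squares and triangles are livers 1, 2 and 3, and bars give the mean ± SD of 3 livers. The groups lie apart for Otc, Ass1 and Asl and overlap for the other 6 genes.

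The cycle starts with Nags, N-acetylglutamate synthase (chr11:102145513-102149477, forward strand, GRCm38), which makes the obligate activator of carbamoyl phosphate synthetase. Nags was at 29.6, 32.2 and 34.8 FPKM in control livers 1, 2 and 3 and at 34.6, 38.4 and 33.0 FPKM in lipophagy livers 1, 2 and 3. It was the lowest of the 9 genes, and its groups overlapped, with only lipophagy liver 2 above the highest control. On the log2 scale the change was 0.13 (95% interval -0.084 to 0.35, adjusted p = 0.456, limma), and it was 0.070 without lipophagy liver 2 and 0.072 without control liver 1. A gene on the opposite strand, Gm11586, overlaps it, and whether the counting used strand is not given in the sources used here.

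Cps1, carbamoyl phosphate synthetase 1 (chr1:67123026-67231259, forward strand), fixes ammonia and bicarbonate in the mitochondrion and is the rate-limiting enzyme of the cycle. Its values were 490, 420 and 430 FPKM in control livers and 562, 439 and 503 FPKM in lipophagy livers. Control liver 1 lay above lipophagy liver 2, so the groups overlapped. Its log2 change was 0.16 (95% interval -0.10 to 0.43, adjusted p = 0.452, limma), and with quantile normalization it was -0.058. It was 0.077 without lipophagy liver 1 and 0.25 without lipophagy liver 2.

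Slc25a15, the carrier that brings ornithine into the mitochondrion and citrulline out (chr8:22375551-22398597, reverse strand), was at 71.5, 79.5 and 69.5 FPKM in control livers and 95.7, 73.8 and 85.4 FPKM in lipophagy livers. Lipophagy liver 2 again lay within the control range. The log2 change came to 0.20 (95% interval -0.051 to 0.46, adjusted p = 0.340, limma), and it ran from 0.11 without lipophagy liver 1 to 0.30 without lipophagy liver 2.

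Otc, ornithine transcarbamylase (chrX:10252305-10321024, forward strand), joins carbamoyl phosphate and ornithine to citrulline. It was at 229, 212 and 219 FPKM in control livers and 292, 265 and 288 FPKM in lipophagy livers. The groups stood apart, from 220 ± 8.48 (SD, n = 3) to 282 ± 14.3 FPKM (SD, n = 3), a difference larger than the spread within either group. This gave a log2 change of 0.35 (95% interval 0.17 to 0.54, adjusted p = 0.134, limma). With quantile normalization the livers overlapped and the log2 change was 0.18 (unadjusted p = 0.0617, limma).

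Ass1, argininosuccinate synthase (chr2:31470207-31520672, forward strand), condenses citrulline with aspartate in the cytosol and sets the pace of arginine formation. The control livers were nearly alike at 63.1, 60.9 and 60.8 FPKM, and the lipophagy livers were at 117, 104 and 88.4 FPKM. The lowest lipophagy liver was thus well above the highest control. The means were 61.6 ± 1.31 and 103 ± 14.1 FPKM (SD, n = 3), the log2 change was 0.72 (95% interval 0.48 to 0.97), and the gene ranked 18 of 11493 by p. The adjusted p was 0.0832 in the analysis of all livers (limma). With 1 liver left out it was 0.0417 without lipophagy liver 3, the only such value below 0.05, and otherwise from 0.0933 without lipophagy liver 2 to 0.335 without control liver 3 (limma). The two-sided exact permutation test gave p = 0.1, the smallest value that 3 livers against 3 allow. With quantile normalization the groups still stood apart, with a log2 change of 0.56 (adjusted p = 0.0903, limma).

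Asl, argininosuccinate lyase (chr5:130011258-130029247, reverse strand), splits argininosuccinate to arginine and fumarate. Control livers were at 234, 236 and 242 FPKM and lipophagy livers at 389, 298 and 428 FPKM. The controls spanned a narrow range and the lipophagy livers a wide one, with liver 2 nearest to the controls. From 237 ± 3.99 to 372 ± 66.9 FPKM (SD, n = 3) the log2 change was 0.63 (95% interval 0.32 to 0.93, adjusted p = 0.131, limma), and it was 0.43 with quantile normalization, where the groups did not overlap either.

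The promoter windows of Ass1 and Otc are shown because these are members with livers apart whose windows were matched in the table of RefSeq promoters used here (GRCm38.p6, 250 bases before to 50 after the transcript start). Capitals mark matches, on either strand, to any of 5 motifs. The TATA box was searched as TATAAA. The GC box, which binds Sp factors, was searched as GGGCGG. The half-site of the cyclic AMP response element, through which glucagon signals act on many liver genes, was searched as TGACG. The motif of C/EBP factors was searched as TTGCNNAA. The motif of the hepatocyte nuclear receptor HNF4 was searched as CAAAGTCCA. With 1 match in the pair of windows, no matches overlapped. The Ass1 window is chr2:31470020-31470319 and the Otc window chrX:10252055-10252354, both on the forward strand.
Ass1: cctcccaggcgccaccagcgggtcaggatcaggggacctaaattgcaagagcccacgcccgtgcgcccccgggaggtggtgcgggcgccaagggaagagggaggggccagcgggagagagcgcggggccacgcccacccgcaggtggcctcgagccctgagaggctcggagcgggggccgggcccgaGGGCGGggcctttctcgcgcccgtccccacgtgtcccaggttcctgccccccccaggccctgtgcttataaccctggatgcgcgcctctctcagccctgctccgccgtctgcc
Otc: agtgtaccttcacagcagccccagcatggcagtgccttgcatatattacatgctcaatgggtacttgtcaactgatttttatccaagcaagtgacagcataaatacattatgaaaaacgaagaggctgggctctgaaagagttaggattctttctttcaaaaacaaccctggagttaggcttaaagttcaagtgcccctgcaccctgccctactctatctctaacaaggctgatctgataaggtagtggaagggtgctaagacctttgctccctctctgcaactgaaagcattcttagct
The Ass1 window held 1 GC box, at position -63 from its RefSeq start, and the Otc window held none of the 5 motifs. The RefSeq start of Ass1, 31470270, lies downstream of the GENCODE start given above, 31470207. A GC box occurs in 35.7% of the 32851 promoter windows, a TATA box in 13.6%, a half-site of the cyclic AMP response element in 20.8%, a C/EBP match in 10.8% and an HNF4 match in 0.475%. GC boxes were also in the windows of Nags, Slc25a15, Glul and Glud1, of which Nags had in addition 1 half-site of the cyclic AMP response element. The windows of 6 members were thus matched, and those of Cps1, Asl and Gls2 were not analysed here. A match is a string of letters and not a shown binding site.

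Gls2, the liver-type glutaminase (chr10:128194457-128210004, forward strand), frees ammonia from glutamine in periportal mitochondria. It was the most variable member, at 116, 86.7 and 93.8 FPKM in control livers and 152, 91.2 and 129 FPKM in lipophagy livers. The order of the livers resembled that of Cps1, with lipophagy livers 1 and 3 and control liver 1 at the top and control liver 2 at the bottom. Its log2 change was 0.30 (95% interval -0.13 to 0.74, adjusted p = 0.393, limma). Leaving out lipophagy liver 1 gave 0.14, and leaving out lipophagy liver 2 gave 0.51 (unadjusted p = 0.00946, adjusted p = 0.180, limma). The gene Spryd4 overlaps it on the opposite strand.

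Glul, glutamine synthetase (chr1:153899944-153909723, forward strand), went a different way from liver to liver. It was at 219, 230 and 212 FPKM in control livers and 223, 290 and 242 FPKM in lipophagy livers. The highest value belonged to lipophagy liver 2, the lowest lipophagy liver for Cps1, Slc25a15, Otc, Asl and Gls2, and lipophagy liver 1 lay within the controls. The log2 change came to 0.18 (95% interval -0.068 to 0.44, adjusted p = 0.376, limma), and it was 0.0089 with quantile normalization. Leaving out lipophagy liver 1 gave 0.27, and leaving out liver 2 of that group gave 0.078. The gene Teddm2 overlaps Glul on the opposite strand and Mir8114 lies within it on the same strand.

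Glud1, glutamate dehydrogenase (chr14:34310727-34345265, forward strand), which interconverts glutamate with ammonia and 2-oxoglutarate, was at 273, 304 and 265 FPKM in control livers and 355, 330 and 269 FPKM in lipophagy livers. Livers 1 and 2 of the lipophagy group were above the controls and liver 3 was within them. This gave a log2 change of 0.17 (95% interval -0.10 to 0.45, adjusted p = 0.442, limma) and turned to -0.012 with quantile normalization. It was 0.088 without lipophagy liver 1 and 0.29 without lipophagy liver 3.

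**Figure D2:**
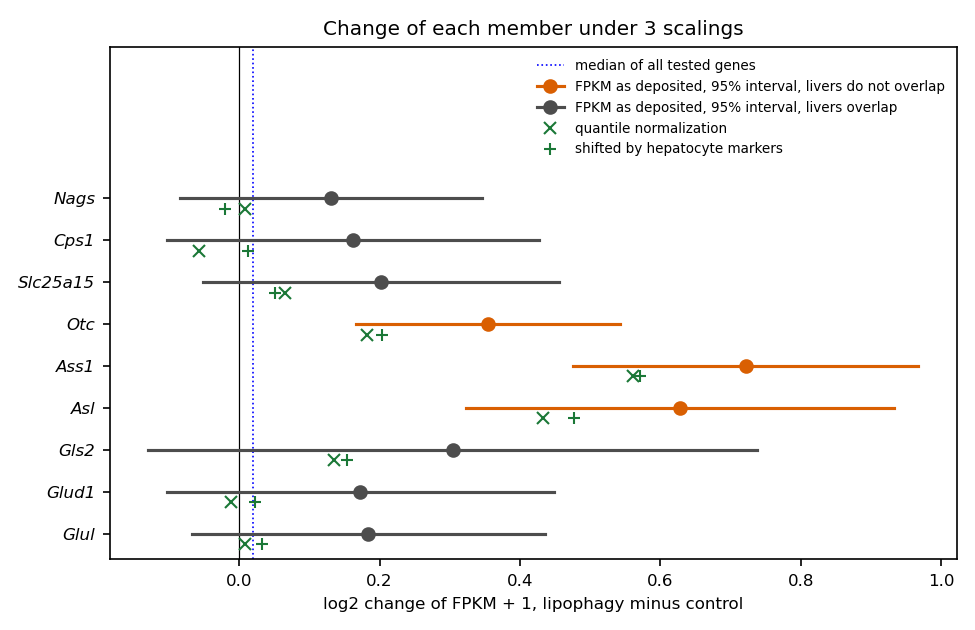
Log2 change (horizontal axis, lipophagy minus control, of FPKM + 1) of each member with its 95% interval from limma; orange marks genes whose livers did not overlap, green crosses and plus signs the values after quantile normalization and after shifting each liver by its hepatocyte markers, and the dotted line the median of all tested genes. The intervals of Otc, Ass1 and Asl lie above 0, and the other 6 cross it; Cps1 and Glud1 lie below 0 with quantile normalization and Nags with the hepatocyte shift.

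Since 14 of 19 hepatocyte markers had a higher mean in lipophagy livers (5 with an unadjusted p below 0.05 in limma, median log2 change 0.17), each liver was also shifted by their mean. Before the shift, 54.5% of all tested genes had a higher mean and 11.5% passed upward. The 5 became 2 without control liver 2, against 8.1% of all tested genes. They became 3 without control liver 1, lipophagy liver 1 or lipophagy liver 2, against 8.36%, 6.95% and 9.41%. With quantile normalization 8 of the 19 had a higher mean, with a median of -0.026, 1 passing upward and 3 downward, against 6.48% and 7.82% of all tested genes. After the shift the median of all tested genes was -0.13. Ass1 (log2 change 0.57), Asl (0.48) and Otc (0.20) stayed above 0 without overlap, against 3.25% of all tested genes, and Ass1 had an adjusted p of 0.0422 (limma). Cps1 was at 0.012, Glud1 at 0.022, Glul at 0.033, Slc25a15 at 0.051, Gls2 at 0.15 and Nags at -0.020. With quantile normalization 2 members, Ass1 and Asl, stood apart upward, against 10.2% of tested genes, and the same 2 had an unadjusted p below 0.05. The split of all genes with an unadjusted p below 0.05 also moved, from 1327 higher and 916 lower to 745 higher and 899 lower with quantile normalization and to 267 higher and 2538 lower with the hepatocyte shift.

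Levels differed widely within the pathway. In control livers the order was Cps1 (446 ± 37.7 FPKM), Glud1 (281 ± 20.6), Asl (237 ± 3.99), Glul (220 ± 9.53), Otc (220 ± 8.48), Gls2 (98.8 ± 15.2), Slc25a15 (73.5 ± 5.28), Ass1 (61.6 ± 1.31) and Nags (32.2 ± 2.62), each a mean ± SD of 3 livers. Of these neighbours, Glul and Otc overlapped. In lipophagy livers Cps1 (501 ± 61.2 FPKM, SD, n = 3) again led, Asl at 372 ± 66.9 passed Glud1 at 318 ± 44.5, and Ass1 at 103 ± 14.1 passed Slc25a15 at 85.0 FPKM. In that group Asl and Glud1, Glud1 and Otc, Otc and Glul, Gls2 and Ass1, and Ass1 and Slc25a15 overlapped. Even the scarcest member, Nags, was backed by an estimated 1427 to 2205 fragments a liver and Cps1 by 50930 to 74561, so that counting error, at most 2.65%, was smaller than the spread between lipophagy livers, which ran from 5.07% for Otc to 24.8% for Gls2. The spread between control livers was 1.68% for Asl and 2.13% for Ass1, the latter about the counting error of Ass1 itself, at most 2.11%.

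The make-up of the set was described as the share of each gene in the summed FPKM of the 9 members, a quantity that does not depend on the scaling of the library. The sum itself was 1725, 1662 and 1626 FPKM in control livers and 2220, 1930 and 2065 FPKM in lipophagy livers. The share of Ass1 was 3.69% ± 0.046 among controls and 4.97% ± 0.60 under lipophagy, and that of Asl 14.2% ± 0.65 and 17.9% ± 2.67 (all SD, n = 3), without overlap. The shares of the other 7 genes overlapped, that of Cps1 with 26.7% ± 1.57 and 24.1% ± 1.28 (SD, n = 3). Shares sum to a whole, so that a larger share of one gene lowers those of others.

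Ratios between 2 members in the same liver were compared for 4 pairs. The log2 ratio of Glul to Cps1, the pericentral against the periportal route, was -1.16, -0.87 and -1.02 in control livers and -1.33, -0.60 and -1.06 in lipophagy livers, with a difference of 0.022 (two-sided exact permutation test, p = 1, adjusted p = 1). The lipophagy livers lay on both sides of the controls. For Glul to Gls2 the difference was -0.12 (exact permutation p = 0.7, adjusted p = 0.933), with livers from 0.92 to 1.41 in controls and from 0.56 to 1.67 in the lipophagy group. Gls2 to Cps1 differed by 0.14 (exact permutation p = 0.3, adjusted p = 0.6), and by 0.067 without lipophagy liver 1 and 0.26 without lipophagy liver 2. Cps1 to Otc was lower in 3 of 3 lipophagy livers, at 1.02 ± 0.069 against 0.82 ± 0.11 (SD, n = 3; exact permutation p = 0.1, adjusted p = 0.4 over the 4 ratios). With 3 livers a group none of these tests could reach 0.05.

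**Figure D3:**
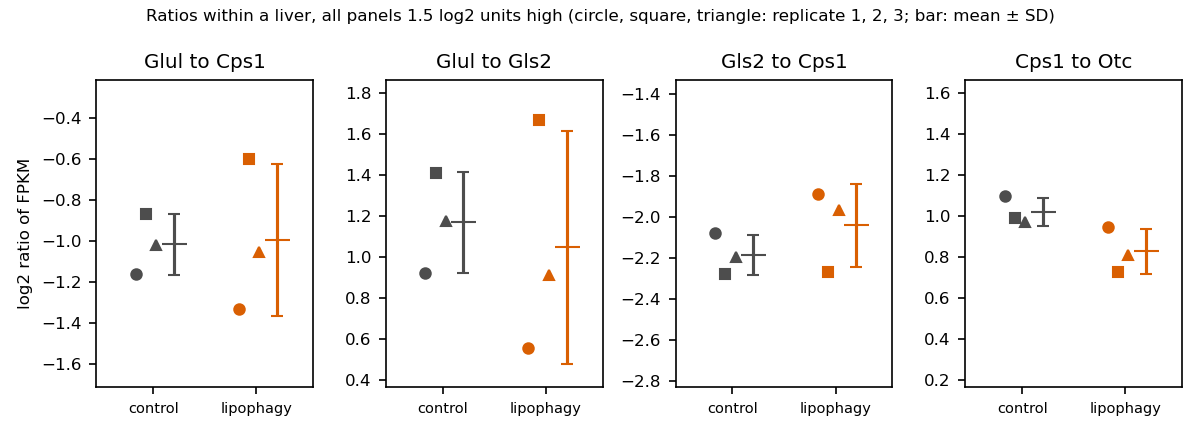
Log2 ratio of FPKM (vertical axes, 1.5 units high in each panel) of 4 pairs of members within a liver, for control (grey) and lipophagy livers (orange); circles, squares and triangles are livers 1, 2 and 3, and bars the mean ± SD. The groups separate only for Cps1 to Otc, and for Glul to Cps1 and Glul to Gls2 lipophagy livers 1 and 2 lie below and above all controls.

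Other genes of ammonia and glutamine handling were taken from a written list. Of 30 genes 26 were tested, 20 had a higher mean in lipophagy livers, 10 passed an unadjusted p below 0.05 upward and 1 downward, and 0 passed the adjustment (limma), with a median log2 change of 0.19. Over all tested genes the shares were 54.5% with a higher mean, 11.5% passing upward and 7.97% downward. Without control liver 3 the upward count was 4, against 7.9% of all tested genes, and without lipophagy liver 1 it was 5, against 6.95%. With quantile normalization it was 4, against 6.48%, and with the hepatocyte shift it was 1, against 2.32%. Among the 10, the largest differences were those of Slc1a2, the glial-type glutamate transporter of pericentral hepatocytes, from 12.2 ± 2.03 to 18.3 ± 3.48 FPKM (SD, n = 3; log2 change 0.54, adjusted p = 0.160, limma), of Gfpt1, which uses glutamine for hexosamines (0.44, adjusted p = 0.227, limma), and of Slc38a2, an amino acid transporter (0.43, adjusted p = 0.256, limma). The livers of Gfpt1 and Slc38a2 overlapped, with lipophagy liver 2 within the controls for each. Slc1a5, a glutamine transporter of low level in these livers, was the one gene of the list with a lower mean and an unadjusted p below 0.05 (log2 change -0.23, adjusted p = 0.204, limma).

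Enzymes of amino acid breakdown, which supply the nitrogen, had a higher mean in lipophagy livers in 30 of 30 genes, with a median log2 change of 0.25. Of these, 13 passed an unadjusted p below 0.05 and 0 the adjusted one (limma), and 11 had livers higher without overlap, against 11.5% of all tested genes with such a p upward and 15.4% higher without overlap. The median was 0.16 without lipophagy liver 1. The count of 13 became 7 without control liver 2, without control liver 3 and without lipophagy liver 1. The shares of all tested genes passing upward were then 8.1%, 7.9% and 6.95%. It was 4 both with quantile normalization and with the hepatocyte shift. A higher mean was held by 25 and 24 of the 30 in these (83.3% and 80%), against 52% and 24.1% of all tested genes. The share of all tested genes passing upward was 6.48% with quantile normalization and 2.32% with the shift. The list also counts Bckdk, a kinase that inhibits branched-chain breakdown. It had the smallest log2 change of the 30 (0.0042, unadjusted p = 0.969, limma). Tat, tyrosine aminotransferase, had the largest difference, with 337, 488 and 240 FPKM in control livers and 803, 390 and 1004 FPKM in lipophagy livers, which overlapped (log2 change 0.995, adjusted p = 0.211, limma). Sds, serine dehydratase, was likewise high in lipophagy livers 1 and 3 and within the controls in liver 2 (0.78, adjusted p = 0.248, limma). Hpd, which acts after Tat in tyrosine breakdown, stood apart, from 1197 ± 79.3 to 1643 ± 185 FPKM (SD, n = 3; 0.45, adjusted p = 0.135, limma).

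Zonation was described by other markers of each zone, since the members are themselves zonal. Of 18 periportal markers 13 had a higher mean in lipophagy livers, 6 passed an unadjusted p below 0.05 upward and 1 downward, and the median log2 change was 0.24. These are shares of 72.2%, 33.3% and 5.56%, against 54.5%, 11.5% and 7.97% of all tested genes. Without control liver 3 the upward count was 2, against 7.9% of all tested genes, and without control liver 2 it was 3, against 8.1%. Leaving out lipophagy liver 1 or lipophagy liver 3 gave 4 each, against 6.95% and 14%. Without lipophagy liver 2 the count was 10, against 9.41%. With quantile normalization 1 passed upward and 3 downward, against 6.48% and 7.82% of all tested genes, and the median was 0.061. With the hepatocyte shift 3 passed upward and 2 downward, against 2.32% and 22.1%. The median was 0.093 with that shift, 0.12 without lipophagy liver 1 and 0.35 without lipophagy liver 2. Beside Sds, the largest of the 6 were Etnppl and Pck1. Etnppl, ethanolamine-phosphate phospho-lyase, was at 34.5 ± 5.88 and 65.9 ± 23.3 FPKM (SD, n = 3; log2 change 0.86, adjusted p = 0.162, limma), and Pck1, the gluconeogenic phosphoenolpyruvate carboxykinase, at 573 ± 118 and 985 ± 355 FPKM (SD, n = 3; 0.74, adjusted p = 0.186, limma). Cdh1, E-cadherin, had a lower mean, at 13.9 ± 0.79 and 11.1 ± 1.49 FPKM (SD, n = 3; -0.30, adjusted p = 0.197, limma).

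Of 18 pericentral markers 11 had a higher mean, 3 passed an unadjusted p below 0.05 upward and 1 downward, and the median log2 change was 0.020, the value over all tested genes. The shares, 61.1%, 16.7% and 5.56%, were near those of all tested genes, 54.5%, 11.5% and 7.97%. With quantile normalization 7 had a higher mean, 2 passed upward and 1 downward (38.9%, 11.1% and 5.56%), against 52%, 6.48% and 7.82% of all tested genes. The median was then -0.12, beside 0.0074 over all tested genes. With the hepatocyte shift 7 had a higher mean (38.9%), against 24.1% of all tested genes. Of the 18, 1 passed upward and 2 downward with that shift (5.56% and 11.1%), against 2.32% and 22.1%. With liver quality weights 5 passed upward and 1 downward (27.8% and 5.56%), against 13.3% and 9.7% of all tested genes. Cyp2c37, a cytochrome P450, was higher in the lipophagy livers (log2 change 0.99, adjusted p = 0.176, limma), although control liver 1 at 43.6 FPKM nearly reached lipophagy liver 2 at 44.0 FPKM. Oat, ornithine aminotransferase, which passes ornithine toward glutamate in the cells that hold Glul, was at 237 ± 16.5 and 274 ± 3.76 FPKM (SD, n = 3; 0.21, adjusted p = 0.229, limma). Slc13a3, a dicarboxylate transporter, was lower in 3 of 3 lipophagy livers (-0.41, adjusted p = 0.165, limma).

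Among 14 tested genes of the Wnt and beta-catenin pathway, which maintains the pericentral program that includes Glul, 9 had a lower mean. The median log2 change of the 14 was -0.14. The list was not divided by whether a gene promotes or restrains the pathway, so the activity of the pathway was not tested. Several of the lower genes (Axin2, Lgr5, Znrf3, Nkd1 and Wnt2) had low levels, not far above the filter of 0.5 FPKM. Of the 14, 0 passed an unadjusted p below 0.05 upward and 1 downward (7.14%), against 11.5% and 7.97% of all tested genes, and 35.7% had a higher mean, against 54.5%. That one was Rspo3, a ligand that boosts Wnt signals from the central vein, at 1.92 ± 0.064 and 1.53 ± 0.15 FPKM (SD, n = 3; -0.21, adjusted p = 0.219, limma). The downward count was 0 with quantile normalization, without control liver 1 and without lipophagy liver 2. Of all tested genes 7.82%, 7.9% and 7.33% passed downward in these. Without control liver 3 the count was 3, against 5.2%, and without lipophagy liver 3 it was 2, against 8.2%. With the hepatocyte shift it was 6, against 22.1%.

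Of 16 regulators of urea cycle genes 9 had a higher mean, with a median log2 change of 0.033, and 1 passed an unadjusted p below 0.05 in each direction. The shares, 56.2% with a higher mean and 6.25% passing either way, were no larger than or near those of all tested genes. Klf15, a transcription factor of amino acid breakdown and ureagenesis, was at 47.6, 60.2 and 54.6 FPKM in control livers and 87.8, 73.2 and 90.8 FPKM in lipophagy livers. Its groups stood apart, with a log2 change of 0.62 (adjusted p = 0.116, limma). Onecut1, a hepatocyte transcription factor, had a lower mean (-0.86, adjusted p = 0.240, limma), with 4.24, 0.983 and 0.934 FPKM in control livers and 0.531, 0.341 and 0.653 FPKM in lipophagy livers. Control liver 1 stood far above the rest, and the other control livers also lay above all lipophagy livers. In all 6 lists, 0 genes passed the adjusted p in the analysis of all livers by group alone (limma). Some genes stood in more than 1 list, such as Sds among breakdown enzymes and periportal markers and Slc1a2 and Oat among partners and pericentral markers.

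**Figure D4:**
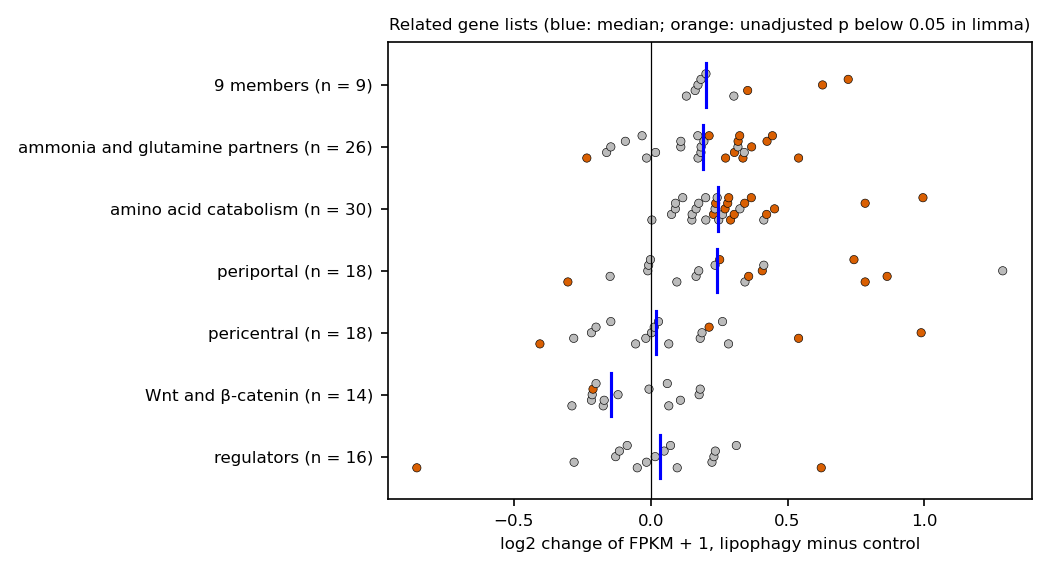
Log2 change (lipophagy minus control, of FPKM + 1) of each tested gene in the members and the related lists, with the median of each list as a blue line and genes with an unadjusted p below 0.05 in limma in orange. The 9 members and the 30 breakdown enzymes lie above 0, and the Wnt and beta-catenin genes have a median of -0.14.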

How the data were processed

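RNA was measured in 6 mouse livers, 3 a group, from stranded mRNA libraries read as 100 bp pairs. The deposited table holds FPKM values made by the authors, and the submitters' processing notes name TopHat2 2.0.13, Bowtie2 2.2.3, SAMtools 0.1.19, Cufflinks 2.2.1 and mm10. The annotation is not given in the sources used here. FPKM are not counts, so log2(FPKM + 1) was tested with limma 3.58.1 (R 4.3.3, intensity trend) over the 11493 genes that averaged 0.5 FPKM or more, p-values were adjusted by Benjamini-Hochberg and the threshold was 0.05. Fold changes are on that scale, which understates those of low genes. Single ratios were compared with exact permutation tests, two-sided. Depth was estimated from the steps of low values, and fragment numbers derive from it. The limma fit was tested on simulated data. Groups came from the labels. The labels do not say whether the livers are separate animals, and p-values measure the spread between these samples, which may be technical. The 9 members and the gene lists were chosen with earlier results of these data known. A further gene of the set is not reported here, and every value over the members is computed without it. Within a list, genes with an unadjusted p below 0.05 were named, at most the 3 largest changes in each direction, and for likeness the 5 highest correlations over the 6 livers. Gene positions are from GENCODE on GRCm38, which is mm10. The alternatives were other pseudocounts, filters and scalings, a fit without the trend, liver weights, a replicate block, and each liver left out.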

Additional observations from a re-analysis of the deposited data

How the results depend on the processing

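The higher means of Otc, Ass1, Asl, Slc25a15, Gls2 and Glul held in 17 of 17 alternatives. Ass1 ranged from 0.56 to 0.83 on the log2 scale and Asl from 0.43 to 0.78, and both had an unadjusted p below 0.05 in 17 of 17 (limma), as did Otc in 16. Quantile normalization turned Cps1 to -0.058 and Glud1 to -0.012, and the hepatocyte shift turned Nags to -0.020. The median of the members was 0.065 and 0.051 in these, and 0.14 to 0.30 with 1 liver left out, the highest without lipophagy liver 2. The number of genes passing over the whole table, 3, was 1 with no filter, 91 with the hepatocyte shift, 39 with liver quality weights and 2 to 11 with 1 liver left out (7 without control liver 2, 5 without lipophagy liver 2, 11 without lipophagy liver 3). Of the members, 1, Ass1, passed with the hepatocyte shift, with the weights and without lipophagy liver 3, so that leaving out 1 liver gave 0 to 1. List medians with quantile normalization were 0.077 for ammonia and glutamine partners, 0.076 for breakdown enzymes, -0.12 for pericentral markers, -0.082 for Wnt genes and -0.092 for regulators, and with the hepatocyte shift 0.039, 0.095, -0.13, -0.30 and -0.12. The periportal median was 0.061 and 0.093 in these. With 1 liver left out the medians ran from 0.18 to 0.24 for partners, 0.16 to 0.29 for breakdown enzymes, 0.12 to 0.35 for periportal markers, -0.0016 to 0.079 for pericentral markers and -0.0092 to 0.078 for regulators, the negative values without control liver 1. The Wnt median was -0.23 with a pseudocount of 0.1 and -0.18 to -0.084 with 1 liver left out. With 1 liver left out, the Glul to Cps1 difference ran from -0.18 to 0.19 and Glul to Gls2 from -0.43 to 0.12. The cause was not tested for any of these.

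Whether livers of the same replicate number belong together is not given in the labels. Deviations of same-numbered livers correlated at 0.25, 0.23 and -0.057, and control liver 3 correlated best with lipophagy liver 2 (0.25). With 3 livers a group these correlations cannot decide whether the livers are paired. With the replicate block 43 genes passed, among them 1 pericentral marker, Cyp2c37, and 1 member, Ass1 (adjusted p = 0.0445, limma).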

Other observations

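The order of the livers within the lipophagy group was examined after the values were seen. Lipophagy liver 2 was the lowest of its group for 5 of the 9 members and for 15 of 18 periportal markers (83.3%), against 31.7% of all tested genes, and the highest for 11 of 18 pericentral markers (61.1%), against 27.5%. Lipophagy liver 1 was the highest of its group for 6 of 9 members, 26 of 30 enzymes of amino acid breakdown and 14 of 19 general hepatocyte markers (73.7%), against 39.3% of all tested genes.

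The genes whose levels followed the mean z-score of the 6 urea cycle members most closely over the 6 livers were Dnajc24 (Pearson r 0.996), Ube2d3 (0.996), Suclg1 (0.995), a subunit of succinyl-CoA ligase, Trabd (0.994) and Fam213a (0.992). Those closest to Glul were Gart (0.994), Hotairm1 (0.991), BC003331 (0.974), Nudt7 (0.971) and Zranb2 (0.969). These are the best of 11493 genes over 6 livers that share 1 group difference, and are given as a description.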
